A study of Homo sapiens with 30 samples.

Results

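The genes described here are 10 feedback and output genes of the ERK pathway: the dual-specificity phosphatases DUSP4, DUSP5 and DUSP6, the Sprouty genes SPRY1, SPRY2 and SPRY4, the Sprouty-related genes SPRED1 and SPRED2, and the ETS transcription factors ETV4 and ETV5. They were chosen by name, and all 10 were listed, with 1 transcript each, among the 20367 genes of the PRO-Seq table. PRO-Seq maps engaged RNA polymerase by labelling nascent RNA in isolated nuclei. The cells were G401, a malignant rhabdoid tumour line that lacks SNF5, the SWI/SNF subunit encoded by SMARCB1. All were transduced with lentivirus carrying a tetracycline-inducible construct, selected with G418 and given doxycycline at 1 μg/ml for 24 h. The 9 PRO-Seq samples were 3 with EGFP (the control), 3 with OMOMYC (a mutant MYC dimerization domain that interferes with MYC) and 3 with SNF5. The same constructs were used for 9 ATAC-Seq samples and for MYC ChIP-Seq. Every sample comes from this 1 line, SNF5 and OMOMYC come from transgenes, and the labels do not say whether replicates were separate transductions. The p-values therefore measure only the spread between these samples, and for PRO-Seq the part left after differences between replicate numbers are taken out.

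ERK is the last kinase of the cascade that runs from growth factor receptors through RAS, RAF and MEK. Active ERK induces genes whose products turn the cascade down, and expression of these genes is often read as a gauge of ERK activity. DUSP4 and DUSP5 encode nuclear phosphatases and DUSP6 a cytoplasmic one that act on ERK, the Sprouty proteins act between receptors and RAF, the SPRED proteins bring the RAS inhibitor neurofibromin to the membrane, and ETV4 and ETV5 are transcription factors of the PEA3 group.

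Before the results, 2 facts about the libraries. Gene body reads, counted from 1 kb past the start to the end of the gene, totalled 28444943 to 46957634 a sample. Reads in the promoter-proximal window, the 50 bp with most reads near the start, totalled 518900 to 3386528, or 1.49 to 2.01 per 100 gene body reads in replicate 1, 9.44 to 11.5 in replicate 2 and 4.40 to 5.41 in replicate 3. SMARCB1 had 2870, 4467 and 3440 gene body reads in the SNF5 samples and at most 6 in any other. The second fact is that replicate 3 stood apart with every construct: at 13.2% of the 15060 genes tested all its samples lay below all 6 others, and at 11.3% above. Levels are given as CPM, the gene body reads of a gene scaled to the library total. EGFR, the epidermal growth factor receptor gene, had 4.71, 6.72 and 9.48 CPM in replicate 3 and 284 to 474 in replicates 1 and 2. Samples of the same number varied together (r across genes of 0.753 to 0.882 after removal of the construct means), so the number was kept as a block in the fit. What the samples of a number share is not given by the labels. The comparisons of gene body, promoter-proximal and pausing values of the 10 genes, and the gene body counts of the related lists, are therefore given also without replicate 3, an alternative chosen after seeing the data.

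Per kb of gene body, DUSP6 was the most transcribed of the 10 in the EGFP samples, at 57.4 ± 8.66 RPKM, or CPM per kb (SD, n = 3). SPRY1 followed at 34.0 ± 4.82, and neither range overlapped that of the next gene. SPRY4 (12.4 ± 2.45) and SPRY2 (11.5 ± 9.21) overlapped, as did each neighbour in the order that followed: DUSP5 (3.19 ± 1.30), ETV4 (2.17 ± 0.434), ETV5 (2.15 ± 0.700), SPRED2 (1.75 ± 0.0945) and SPRED1 (1.64 ± 0.0456). DUSP4 was close to silent, with 0, 2 and 5 gene body reads in the EGFP samples and at most 11 in any sample. Its counts stayed under the filter of a mean of 10 in both regions, so 9 of the 10 genes were tested and no fold is given for DUSP4. In hg19 the genes that the comparisons turn on are DUSP5 (chr10:112257625-112271302, plus strand), DUSP6 (chr12:89741837-89746296, minus strand), SPRY2 (chr13:80910112-80915086, minus strand), SPRY4 (chr5:141689992-141704620, minus strand), SPRED2 (chr2:65537985-65659656, minus strand) and ETV4 (chr17:41605211-41623762, minus strand).

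**Figure D1:**
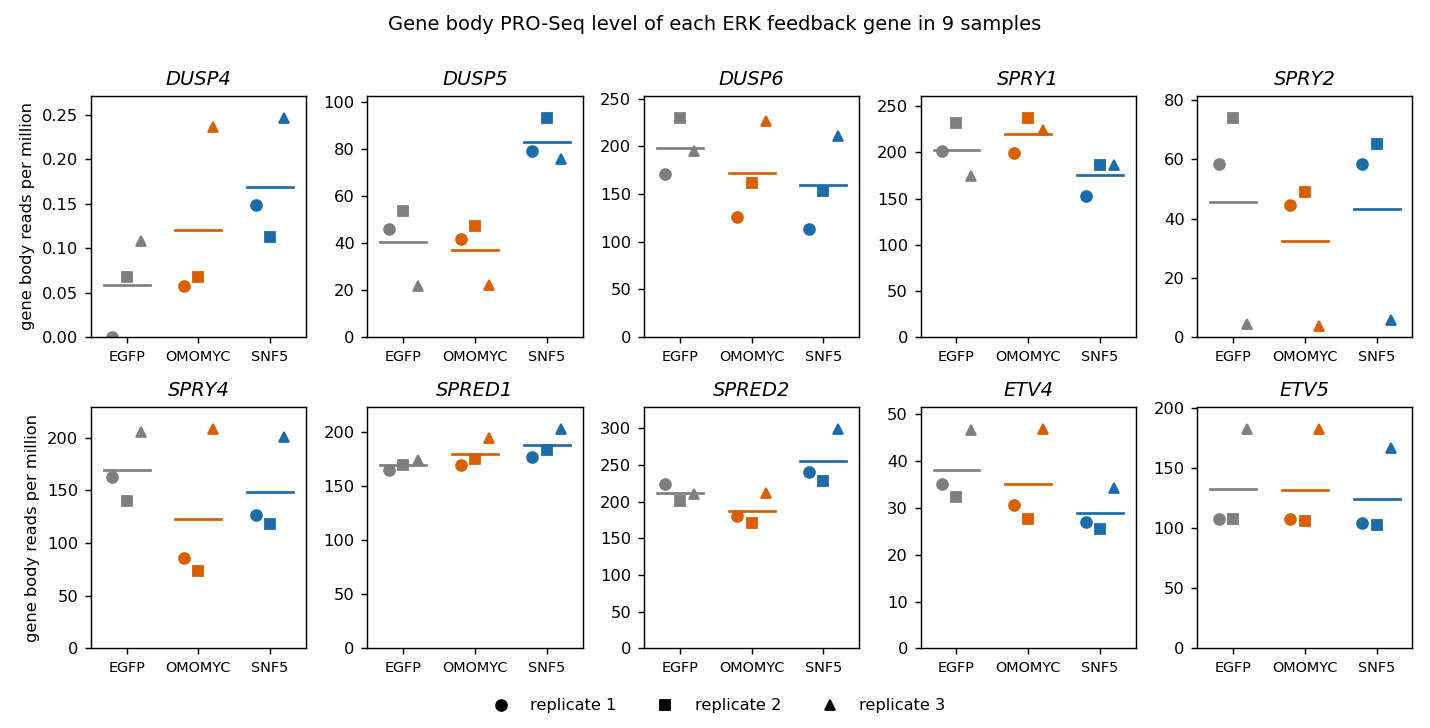
Gene body CPM (y axis, from 0, scaled for each gene) in the 9 PRO-Seq samples, grouped by construct on the x axis, with symbols for the replicate number and a line at the mean of each group. DUSP5 is higher in every SNF5 sample than in every EGFP sample, and SPRY2 lies under 6 CPM in all 3 samples of replicate 3.

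Some of these genes differed by replicate number. SPRY2 had 4.41, 3.69 and 5.64 CPM in the EGFP, OMOMYC and SNF5 samples of replicate 3, against 44.5 to 74.1 in the other 6 samples, a 12.7-fold lower mean. Only 1.00% of the genes tested had a lower ratio of replicate 3 to the others. SPRY2 was low in its promoter-proximal window as well, with 14 to 19 reads in replicate 3 and 41 to 171 elsewhere. SPRY4 and ETV5 went the opposite way. SPRY4 had 201 to 208 CPM in replicate 3 and 73.5 to 163 elsewhere, and ETV5 had 167 to 183 in replicate 3 and 102 to 108 elsewhere. Thus 1 of the 9 tested genes lay wholly below and 2 lay wholly above, beside the 13.2% and 11.3% of all genes given earlier. ETV1, the remaining PEA3 gene, was also higher in replicate 3, at 57.0 to 66.4 CPM against 5.86 to 20.3.

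The first comparison asks what restoring SNF5 does to these genes. With all samples, gene body reads of 2 of the 9 tested genes rose and of 1 fell at an adjusted p under 0.05, beside 34.1% of all genes called in either direction (17.6% rose and 16.5% fell), a share close to that of the genes described here. Their median change was −0.08 on the log2 scale, and that of all genes −0.03.

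DUSP5 made the largest change of the 9. It had 45.9, 53.6 and 21.9 CPM in EGFP replicates 1, 2 and 3 and 79.3, 93.5 and 75.8 with SNF5. The groups did not overlap, and SNF5 was higher within each replicate number, by 1.73-fold, 1.74-fold and 3.46-fold. The fitted log2 change was 1.14 (SE 0.18, adjusted p = 0.00209), and without replicate 3 it was 0.80 (SE 0.05, adjusted p = 1.56e-10). The call held whichever single sample, or replicate number, was left out. DUSP6, the cytoplasmic phosphatase, did not follow DUSP5. Its levels were 171, 230 and 195 with EGFP and 114, 153 and 211 with SNF5, lower in replicates 1 and 2 (0.67-fold and 0.66-fold) and not in replicate 3 (1.08-fold). Its log2 change of −0.36 (SE 0.13) missed the threshold at an adjusted p of 0.0637, and reached −0.59 (SE 0.04, adjusted p = 4.69e-11) without replicate 3. Leaving out EGFP replicate 3 alone (−0.59, adjusted p = 0.000218) or SNF5 replicate 3 alone (−0.48, adjusted p = 0.0185) was enough to make that call.

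Among the inhibitors upstream of ERK, SPRED2 rose with SNF5, SPRED1 lay at the threshold and no Sprouty gene passed it. SPRED2 had 224, 201 and 210 CPM with EGFP and 240, 228 and 299 with SNF5, groups that did not overlap. Its log2 change was 0.26 (SE 0.08, adjusted p = 0.0272) with all samples and 0.14 (SE 0.03, adjusted p = 0.00155) without replicate 3. The call was lost without EGFP replicate 2 (adjusted p = 0.0681), SNF5 replicate 2 (adjusted p = 0.0629) or SNF5 replicate 3 (adjusted p = 0.0512), and without EGFP replicate 3 the change was 0.16. It was also lost without the whole of replicate 1 (adjusted p = 0.0718) or 2 (adjusted p = 0.123). SPRED1 was higher in each of the 3 numbers, by 1.08-fold, 1.08-fold and 1.17-fold, and its log2 change of 0.15 (SE 0.05) had an adjusted p of 0.0507 (0.0417 without OMOMYC replicate 3). SPRY1 was at 0.76-fold and 0.80-fold in replicates 1 and 2 and at 1.07-fold in replicate 3, with a log2 change of −0.21 (SE 0.09, adjusted p = 0.103). It was called without EGFP replicate 3 (−0.34, adjusted p = 0.00258) or SNF5 replicate 3 (−0.30, adjusted p = 0.0156). SPRY4 was at 0.78-fold, 0.85-fold and 0.98-fold (log2 change −0.22, SE 0.16, adjusted p = 0.315), and was called without OMOMYC replicate 3 (−0.21, adjusted p = 0.0445). SPRY2 was at 1.00-fold, 0.88-fold and 1.28-fold (0.02, SE 0.09, adjusted p = 0.910).

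Of the transcription factor genes, ETV4 fell with SNF5 and ETV5 did not pass the test. ETV4 had 35.2, 32.3 and 46.7 CPM with EGFP and 27.0, 25.4 and 34.3 with SNF5, lower within each number by a similar ratio (0.77-fold, 0.79-fold and 0.73-fold), although the ranges of the groups overlap. ETV4 fell by 0.39 on the log2 scale (SE 0.08, adjusted p = 0.00627). The call held whichever single sample was left out, and was lost without the whole of replicate 1 (adjusted p = 0.0763) or 2 (adjusted p = 0.0569). ETV5 stood at 108, 108 and 183 with EGFP and 104, 102 and 167 with SNF5. Its log2 change was −0.08 (SE 0.05, adjusted p = 0.231). The counted gene body of ETV4 lies wholly within DHX8 on the opposite strand, and 2445 bp of that of ETV5 on the same strand by DGKG, so reads there cannot be assigned to 1 gene with certainty in the latter case. Without replicate 3, 7 of the 9 genes were called, 3 higher (DUSP5, SPRED1 and SPRED2) and 4 lower (DUSP6, SPRY1, SPRY4 and ETV4), beside 56.5% of all 14939 genes then tested (26.7% higher and 29.9% lower).

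**Figure D2:**
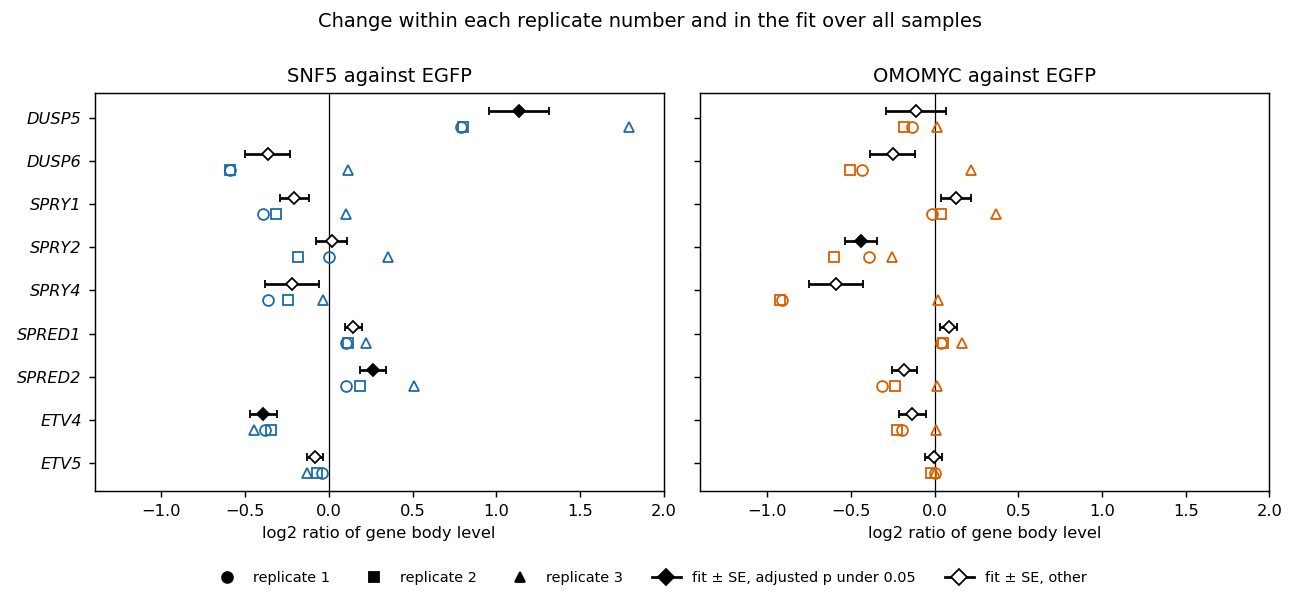
Log2 ratio of the gene body level to EGFP (x axis) for the 9 tested genes (y axis), with SNF5 on the left and OMOMYC on the right. Open coloured symbols are the ratios within replicates 1, 2 and 3, and diamonds are the fit over all samples with its SE, filled where the adjusted p is under 0.05. For SPRY4 with OMOMYC the ratios of replicates 1 and 2 are −0.91 and −0.93 and that of replicate 3 is 0.02.

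The second comparison asks what interfering with MYC through OMOMYC does to the same genes. With all samples, 1 of the 9 tested genes was called (SPRY2, lower), beside 8.53% of all genes in either direction and, by direction, 4.1% higher and 4.42% lower. The median change of the 9 was −0.13 on the log2 scale, against −0.000287 for all genes. SPRY2 was lower within each number: 58.6, 74.1 and 4.41 CPM with EGFP stood against 44.5, 48.9 and 3.69 with OMOMYC. SPRY2 fell by 0.44 on the log2 scale (SE 0.10, adjusted p = 0.0317). The call was lost without EGFP replicate 1 (adjusted p = 0.184) or 2 (adjusted p = 0.212), OMOMYC replicate 1 (adjusted p = 0.216) or 2 (adjusted p = 0.208), or SNF5 replicate 1 (adjusted p = 0.0536). Nearly all calls among all genes were lost too: 9 and 5 remained without EGFP replicate 1 or 2, and 9 and 6 without OMOMYC replicate 1 or 2. All of these were higher. Without SNF5 replicate 1, 266 genes were higher and 272 lower. Without the whole of replicate 1 or 2 SPRY2 was not called either, and 2 of all genes were, both higher.

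SPRY4 showed the largest difference between replicate numbers. It had 163, 140 and 205 CPM with EGFP and 86.2, 73.5 and 208 with OMOMYC, so that OMOMYC stood at 0.53-fold in replicates 1 and 2 and at 1.01-fold in replicate 3. The log2 change was −0.59 (SE 0.16, adjusted p = 0.0567) over all samples and −0.92 (SE 0.04, adjusted p = 3.86e-12) without replicate 3. It passed the threshold on leaving out EGFP replicate 3 (−0.80, adjusted p = 0.00967), OMOMYC replicate 3 (−0.88, adjusted p = 0.00403) or SNF5 replicate 3 (−0.59, adjusted p = 0.0238). DUSP6 had the same form at a smaller size, with 0.74-fold, 0.70-fold and 1.16-fold in the 3 numbers. Its log2 change was −0.25 (SE 0.13, adjusted p = 0.248) over all samples and −0.47 (SE 0.04, adjusted p = 4.31e-09) without replicate 3. Without EGFP replicate 3 alone it was also called (−0.47, adjusted p = 0.00178).

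The remaining 6 genes had log2 changes of −0.18 to 0.13 with OMOMYC, none of them called with all samples. SPRED2 was at 0.80-fold, 0.85-fold and 1.01-fold, and was called without EGFP replicate 3 (−0.29, adjusted p = 0.00903). ETV4 stood at 0.87-fold, 0.85-fold and 1.00-fold, and DUSP5 at 0.91-fold, 0.88-fold and 1.01-fold. ETV5 (log2 change −0.01, SE 0.05), SPRED1 (0.08, SE 0.05) and SPRY1 (0.13, SE 0.09) had adjusted p-values of 0.951, 0.299 and 0.380. Without replicate 3, 6 of the 9 genes were called and all 6 were lower (DUSP5, DUSP6, SPRY2, SPRY4, SPRED2 and ETV4), beside 45.5% of all genes called, 23.9% lower and 21.6% higher. That fit has 2 samples a group. Whether the effect of OMOMYC differs between replicate 3 and the others was not tested. MYC gene body reads, which the files cannot assign to the gene or to the OMOMYC construct, were 3533, 3669 and 3993 with EGFP and 5066, 11277 and 6154 with OMOMYC. In CPM, OMOMYC exceeded EGFP by 1.44-fold, 3.10-fold and 1.53-fold in the 3 numbers.

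SNF5 was also compared with OMOMYC directly, since the comparisons with EGFP share their control samples. Of the 9 genes, 3 were higher with SNF5 and 1 was lower, beside 18.9% of all genes called, 11.5% higher and 7.38% lower. DUSP5 was higher by 1.25 on the log2 scale (SE 0.18, adjusted p = 0.00197), SPRED2 by 0.44 (SE 0.08, adjusted p = 0.00459) and SPRY2 by 0.46 (SE 0.10, adjusted p = 0.0111). SPRY1 had a log2 difference of −0.33 (SE 0.09, adjusted p = 0.0305). For DUSP6 the difference was −0.11 (SE 0.13, adjusted p = 0.597) and for SPRY4 0.37 (SE 0.16, adjusted p = 0.147). ETV4 lay at the threshold (−0.26, SE 0.08, adjusted p = 0.0521), while ETV5 (−0.08, SE 0.05, adjusted p = 0.314) and SPRED1 (0.06, SE 0.05, adjusted p = 0.427) did not reach it. The calls for SPRY2 and SPRY1 were lost without OMOMYC replicate 1 (adjusted p = 0.0502 and 0.0908) or 2 (adjusted p = 0.0809 and 0.103), and that for SPRY1 also without OMOMYC replicate 3 (adjusted p = 0.114) or SNF5 replicate 1 (adjusted p = 0.130) or 2 (adjusted p = 0.124). Without replicate 3, 6 of the 9 were called, beside 42.2% of all genes, with SPRY4 (0.62, SE 0.04, adjusted p = 6.67e-10) and DUSP6 (−0.12, SE 0.04, adjusted p = 0.0156) added.

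In promoter-proximal reads, which count polymerase held shortly after it starts, DUSP5 was the 1 gene of the 9 called. It had 23, 58 and 82 reads with EGFP and 65, 161 and 140 with SNF5, and scaled to the gene body totals it was higher within each number, by 2.42-fold, 2.31-fold and 1.77-fold. The log2 change was 1.05 (SE 0.24, adjusted p = 0.00850), beside 4.27% of the 11241 genes called in either direction and 2.64% higher. The call was lost without EGFP replicate 2 (adjusted p = 0.205), SNF5 replicate 2 (adjusted p = 0.0746) or SNF5 replicate 3 (adjusted p = 0.0558). In these fits 40, 81 and 177 of all genes were called higher and 12, 15 and 52 lower. With all samples 297 were higher and 183 lower. Without the whole of replicate 3 DUSP5 was again the 1 call (1.23, SE 0.28, adjusted p = 0.000774), beside 5.49% of all genes. With OMOMYC against EGFP none of the 9 was called, by edgeR or by DESeq2, beside 1.8% of all genes, and none was at an unadjusted p under 0.05. With SNF5 against OMOMYC none was called by either tool, beside 0.827% of all genes. DUSP5 alone had an unadjusted p under 0.05 there. Without replicate 3 both counts stayed at 0 with edgeR, beside 8.11% and 4.33% of all genes, and 2 and 3 of the 9 had an unadjusted p under 0.05. The median promoter-proximal change of all genes with OMOMYC was 0.13 on the log2 scale and moved to −0.03 when promoter-proximal totals set the scale, and the median of the 9 genes moved with it, from 0.14 to −0.03.

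The pausing index, the density of reads in the promoter-proximal window over that in the gene body, ranged widely among these genes. The window does not cover coding starts more than 500 bp from the start used, which limits the index. Within that distance lay 2 of 6 annotated coding starts of SPRED2 and of SPRY1, 4 of 8 of ETV4 and 4 of 6 of ETV5. In each EGFP sample SPRED2 had the highest index of the 9 and SPRY4 the lowest, although the index also followed the replicate number. SPRED2 had an index of 15.9, 303 and 138 in EGFP replicates 1, 2 and 3, and 13.2, 176 and 57.8 with SNF5. It was lower with SNF5 within each number, at 0.83-fold, 0.58-fold and 0.42-fold. Both parts of the index moved. Gene body reads rose by 0.26 on the log2 scale. Scaled to the gene body totals, promoter-proximal reads were 1.47, 25.3 and 12.0 CPM with EGFP and 1.31, 16.7 and 7.16 with SNF5. The promoter-proximal log2 change was −0.55 (SE 0.22, adjusted p = 0.136), larger in size than the gene body change but not called. The index of SPRED2 fell by 0.83 on the log2 scale (SE 0.22, adjusted p = 0.0202), the 1 call among the 9, beside 3.66% of the 11171 genes called and 1.64% lower. The call was lost without replicate 2 of EGFP (adjusted p = 0.214) or SNF5 (adjusted p = 0.172), without replicate 3 of EGFP (adjusted p = 0.134) or SNF5 (adjusted p = 0.199), and without the whole of replicate 3 (−0.60, SE 0.24, adjusted p = 0.139), where none of the 9 was called by edgeR, beside 3.57% of all genes, and SPRED2 alone had an unadjusted p under 0.05. Of all genes, 24 and 29 were called lower without replicate 2 of EGFP or SNF5, and 59 and 74 without replicate 3 of either. With all samples 183 were called lower.

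The index of SPRY4 was 1.45, 4.53 and 3.12 with EGFP and 2.19, 11.2 and 3.26 with OMOMYC. It was higher by 1.51-fold, 2.47-fold and 1.04-fold, with a log2 change of 0.64 (SE 0.26, adjusted p = 0.191) over all samples and 1.05 (SE 0.29, adjusted p = 0.0151) without replicate 3. The promoter-proximal reads of SPRY4, 24 to 130 a sample, were at 0.80-fold, 1.30-fold and 1.06-fold. DUSP5 was called as well without replicate 3 (0.87, SE 0.29, adjusted p = 0.0448), beside 8.62% of all genes, 8.45% higher. With all samples none of the 9 was called with OMOMYC by edgeR or DESeq2, beside 2.26% of all genes. SPRY4 alone had an unadjusted p under 0.05 by edgeR.

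**Figure D3:**
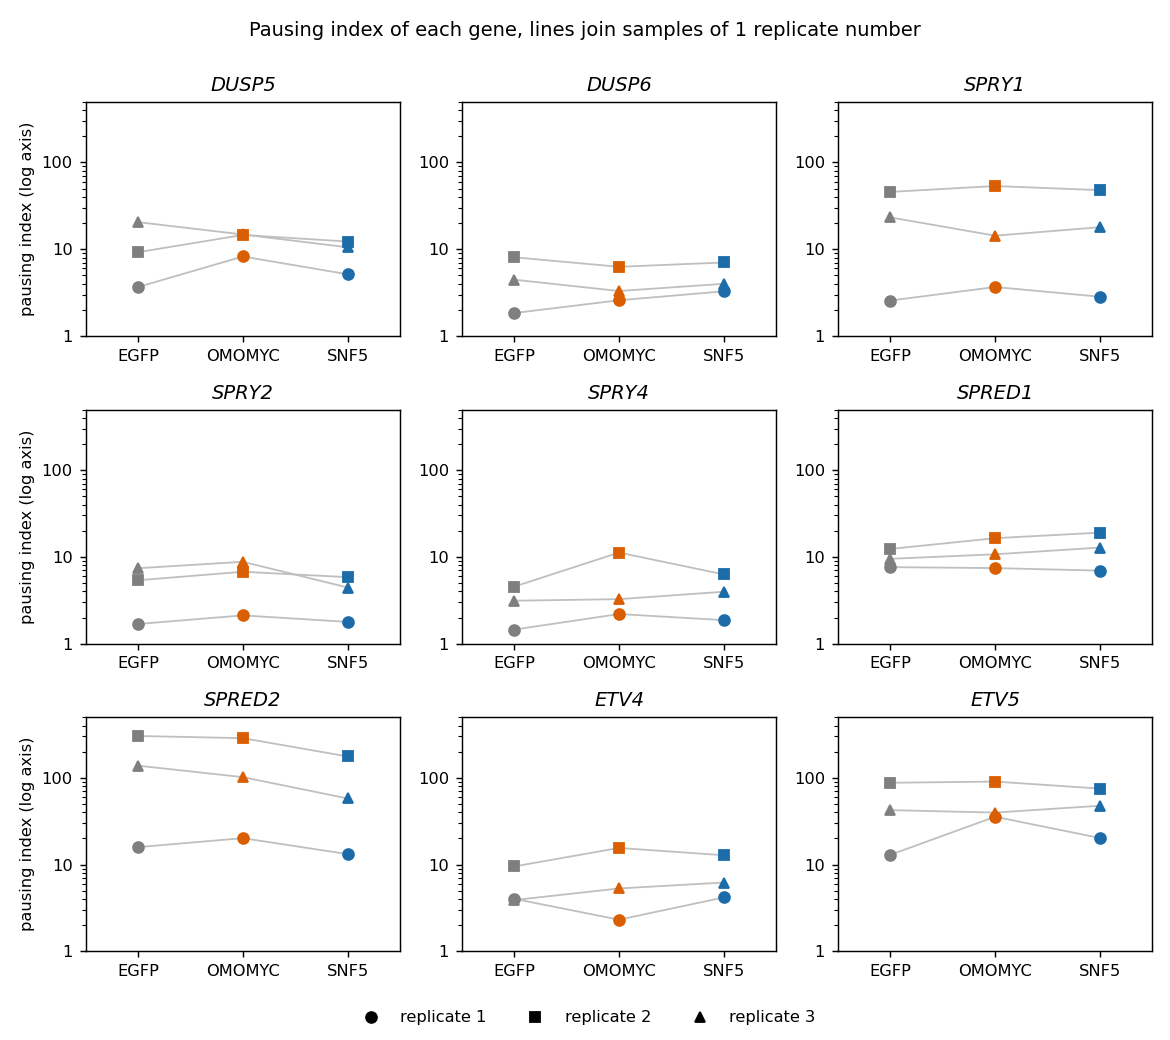
Pausing index (y axis, log scale) of the 9 tested genes by construct (x axis), with symbols for the replicate number and lines joining the samples of a number. Replicate 1 is lowest for most genes, and for SPRED2 the SNF5 sample lies under the EGFP sample in each number, at 13.2 against 15.9, 176 against 303 and 57.8 against 138.

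Open chromatin at these genes was read from ATAC-Seq peaks, called by the authors in each sample. Peaks of the 9 samples that overlapped were merged, which gave 55 sites in the 10 genes and 50 kb to each side (hg38). Each gene had a site within 1 kb of its start in at least 1 sample. DUSP6, ETV5 and SPRED1 had it in all 9 samples. At DUSP6 its fold over local background ran from 3.74 to 5.54, and at ETV5 from 5.84 to 9.22. At SPRY2 the start site was called in 1 EGFP sample (5.05-fold), in 1 OMOMYC sample (3.85-fold) and in all 3 SNF5 samples (5.26-fold to 6.32-fold). DUSP4, though nearly untranscribed, had a start site in all 3 SNF5 samples (4.45-fold to 6.51-fold), in 2 OMOMYC samples and in 1 EGFP sample.

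Sites found in all 3 SNF5 samples and in no EGFP sample numbered 4 of 55, beside 9.09% of all 40005 sites. They lay away from the starts. The site at DUSP6 was 35461 bp downstream of its start (chr12:89316588-89317225, 7.31-fold to 8.59-fold) and was also called in 2 OMOMYC samples. That at ETV5 was within the gene, 11150 bp past the start (chr3:186097736-186098273, 5.12-fold to 8.43-fold). That at SPRED2 was within the gene, 72926 bp past the start (chr2:65359466-65359867, 5.16-fold to 7.70-fold), and was also called in 1 OMOMYC sample (4.83-fold). That at SPRY4 was 43971 bp downstream of the start used for its promoter window below (chr5:142280159-142280469, 5.38-fold to 6.32-fold). No site of the 55 met the opposite rule for SNF5, met by 0.0075% of all sites, and none met either rule for OMOMYC, met by 0.0275% and 0.0175%.

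Per sample, 17, 23 and 9 of the 55 sites were open with EGFP, 10, 33 and 16 with OMOMYC, and 52, 33 and 24 with SNF5. All SNF5 samples lay above all EGFP samples, with means of 36.3 ± 14.3 and 16.3 ± 7.02 sites (SD, n = 3) and an exact two-sided permutation p of 0.1, the smallest that 3 against 3 can give. The OMOMYC mean of 19.7 ± 11.9 differed from that of EGFP by 3.33 sites (exact permutation p = 0.8). The number of peaks called in the whole genome moved the same way, from 9208 to 17817 with EGFP and from 22722 to 33596 with SNF5. When every list was shortened to the strongest peaks, as many as the shortest list holds, the means were 8.33 with SNF5 and 7.33 with EGFP (exact permutation p = 0.7).

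**Figure D4:**
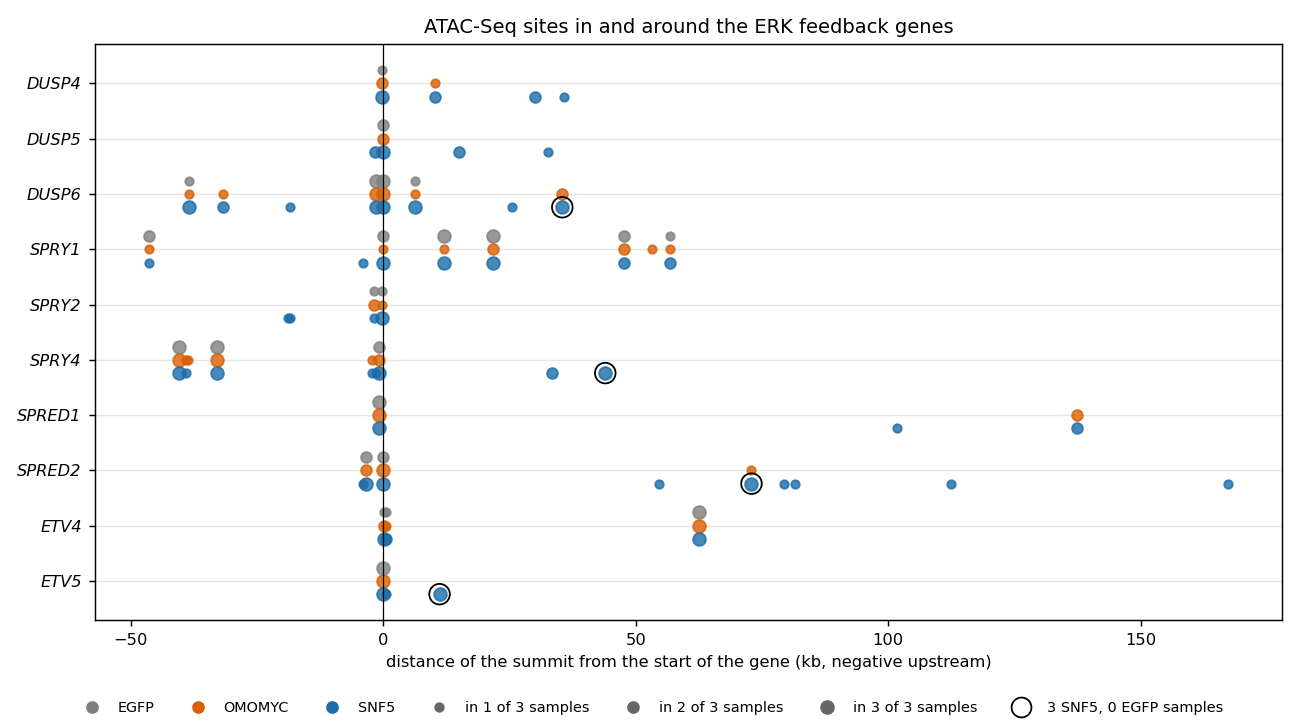
ATAC-Seq sites in the 10 genes and 50 kb to each side, by the distance of the summit from the start of the gene (x axis, kb). For SPRY4 the start is that of its promoter window, which lies inside the gene. Each gene has rows for EGFP, OMOMYC and SNF5, larger dots were called in more of the 3 samples, and rings mark the 4 sites called in all SNF5 samples and in no EGFP sample.

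MYC ChIP-Seq peaks at the starts of these genes were counted as well. With 10 genes, counts as low as these cannot be told apart from the shares of all genes beside them. With EGFP none of the 10 had a MYC summit within 1 kb of its start in both samples, beside 4.31% of all genes. In EGFP replicate 2, the sample with a longer peak list, SPRED1 had one (608 bp away, 4.53-fold over background), beside 23.1% of all genes, and DUSP6 had one 1617 bp away. With SNF5 none of the 10 had a summit within 1 kb in either sample, beside 0.643% of all genes.

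Promoter sequences, from 250 bases before the start to 50 after it, were matched in RefSeq (GRCh38.p14) for 6 of the genes: DUSP6, SPRY1, SPRY2, SPRY4, SPRED1 and SPRED2. DUSP4, DUSP5, ETV4 and ETV5 had no entry. The E-box CACGTG that MYC binds, the AP-1 motif TGANTCA and the ETS motif CCGGAAGT were searched on both strands. None of the 6 windows held any of them, while 7.26%, 7.71% and 4.14% of all 35116 promoters did. The 6 held 47.7% to 76.3% G and C, with 58.7% the median of all promoters. The open site at the start covered the whole window of DUSP6 and SPRED2 and 88.3% of that of SPRY2. At SPRY4 it covered none of the window, and its summit lay at −875 bp from the start used there. That start (chr5:142324247) lies inside SPRY4, whose span has its 5′ end at chr5:142325021. The open site (chr5:142324906-142325423) covers this 5′ end, and its summit lies next to the start of the antisense gene SPRY4-AS1. The 250 bases before the start used for DUSP6, SPRY2, SPRY4 and SPRED2 are shown. These 4 were chosen because, of the 6 with an entry, they were called lower with OMOMYC without replicate 3. For SPRY4 these bases lie inside the gene. The SPRY4 window was not matched to the start of the transcript counted by PRO-Seq. All 4 sequences read 5′ to 3′ on the strand of the gene, the minus strand in each case, with CG dinucleotides in capitals.
DUSP6, chr12:89352502-89352751: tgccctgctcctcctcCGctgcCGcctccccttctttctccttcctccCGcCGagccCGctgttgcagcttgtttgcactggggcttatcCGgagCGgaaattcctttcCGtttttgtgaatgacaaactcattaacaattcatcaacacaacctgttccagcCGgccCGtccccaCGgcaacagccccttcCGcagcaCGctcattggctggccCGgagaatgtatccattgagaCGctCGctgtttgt
SPRY2, chr13:80341127-80341376: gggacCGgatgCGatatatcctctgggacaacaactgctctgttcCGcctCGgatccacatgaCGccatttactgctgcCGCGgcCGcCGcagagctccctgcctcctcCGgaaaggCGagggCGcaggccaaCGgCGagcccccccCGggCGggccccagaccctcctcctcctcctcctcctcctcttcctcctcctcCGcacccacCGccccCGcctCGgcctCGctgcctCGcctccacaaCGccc
SPRY4, chr5:142324248-142324497: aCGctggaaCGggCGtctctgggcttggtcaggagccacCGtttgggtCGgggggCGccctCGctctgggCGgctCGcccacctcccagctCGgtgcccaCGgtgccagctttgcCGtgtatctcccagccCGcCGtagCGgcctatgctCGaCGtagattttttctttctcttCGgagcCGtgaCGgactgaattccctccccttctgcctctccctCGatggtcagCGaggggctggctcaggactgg
SPRED2, chr2:65432600-65432849: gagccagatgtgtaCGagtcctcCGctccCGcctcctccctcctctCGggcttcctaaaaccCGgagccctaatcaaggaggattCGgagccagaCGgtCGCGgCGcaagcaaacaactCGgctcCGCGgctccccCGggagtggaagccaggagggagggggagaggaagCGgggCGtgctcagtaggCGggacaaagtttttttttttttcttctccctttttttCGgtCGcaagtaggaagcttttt
SPRY2 holds 23 CG dinucleotides in these 250 bases, SPRY4 22, SPRED2 19 and DUSP6 16.

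Of 10 further DUSP, SPRY, SPRED and ETV genes, 8 were tested in the gene body, and with SNF5 3 rose and 2 fell. Among all genes 17.6% rose and 16.5% fell with SNF5, and 4.1% and 4.42% with OMOMYC. DUSP10, which acts mainly on the JNK and p38 kinases, had 8, 14 and 20 reads with EGFP, 14, 10 and 18 with OMOMYC and 185, 316 and 245 with SNF5. The SNF5 samples all lay far above the rest, and the log2 change, larger than that of any of the 9, was 4.02 (SE 0.28, adjusted p = 3.88e-05). DUSP16, of the same kinase preference, rose by 0.34 on the log2 scale (SE 0.06, adjusted p = 0.00317), and ETV1 by 0.89 (SE 0.24, adjusted p = 0.0196). DUSP2, a nuclear phosphatase, fell by 0.72 (SE 0.15, adjusted p = 0.00772). DUSP7, a cytoplasmic ERK phosphatase like DUSP6, fell by 0.30 with SNF5 (SE 0.10, adjusted p = 0.0441) and by 0.40 with OMOMYC (SE 0.10, adjusted p = 0.0427), the 1 gene body call of this list with OMOMYC. The pausing index of DUSP1, an immediate early phosphatase, rose with OMOMYC (0.73, SE 0.21, adjusted p = 0.0451). Without replicate 3, 4 of the 8 were called higher and 3 lower in the gene body with each construct. The shares of all genes were then 26.7% and 29.9% with SNF5, and 21.6% and 23.9% with OMOMYC.

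All 22 genes of a list of the RAS, RAF, MEK and ERK cascade were tested in the gene body. With SNF5, 4 rose and 1 fell, beside 17.6% and 16.5% of all genes. KSR1, a scaffold of the cascade, rose by 0.88 on the log2 scale (SE 0.08, adjusted p = 9.70e-05) and the adaptor GAB1 by 0.42 (SE 0.07, adjusted p = 0.00271). The RAS inhibitors RASA2 (0.24, SE 0.06, adjusted p = 0.0191) and NF1 (0.17, SE 0.05, adjusted p = 0.0206) rose as well, while the adaptor SHC1 fell by 0.20 (SE 0.06, adjusted p = 0.0306). With OMOMYC KSR1 rose by 0.36 (SE 0.08, adjusted p = 0.0304) and no other gene of the list was called in the gene body, beside 8.53% of all genes. Without replicate 3, 6 were called higher and 6 lower with SNF5, and 7 higher and 2 lower with OMOMYC. The shares of all genes were then 26.7% higher and 29.9% lower with SNF5, and 21.6% and 23.9% with OMOMYC. The median change of the list was 0.0073 with SNF5 and 0.015 with OMOMYC. In the promoter-proximal window MAP2K2, which encodes a MEK kinase, rose with both (1.06, SE 0.24, adjusted p = 0.00851 with SNF5, and 1.25, SE 0.24, adjusted p = 0.00652 with OMOMYC), as did its pausing index (1.12, SE 0.25, adjusted p = 0.00549, and 1.22, SE 0.25, adjusted p = 0.00396).

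Of 14 other genes induced by ERK, 11 were tested, and 1 fell with each construct: the cytokine gene LIF with SNF5 (by 0.25, SE 0.07, adjusted p = 0.0172) and the cyclin gene CCND1 with OMOMYC (by 0.34, SE 0.08, adjusted p = 0.0350). None rose in the gene body. Of all genes, 17.6% rose and 16.5% fell with SNF5, and 4.1% and 4.42% with OMOMYC. The pausing index of EGR1, an immediate early transcription factor, rose with SNF5 (0.91, SE 0.27, adjusted p = 0.0441). Without replicate 3, 5 of the 11 were lower with OMOMYC (CCND1, EPHA2, FOSL1, IER2 and PHLDA1) and EGR1 was higher, beside 23.9% lower and 21.6% higher of all genes. With SNF5 1 of the 11 was then higher and 2 were lower, beside 26.7% and 29.9% of all genes.

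**Figure D5:**
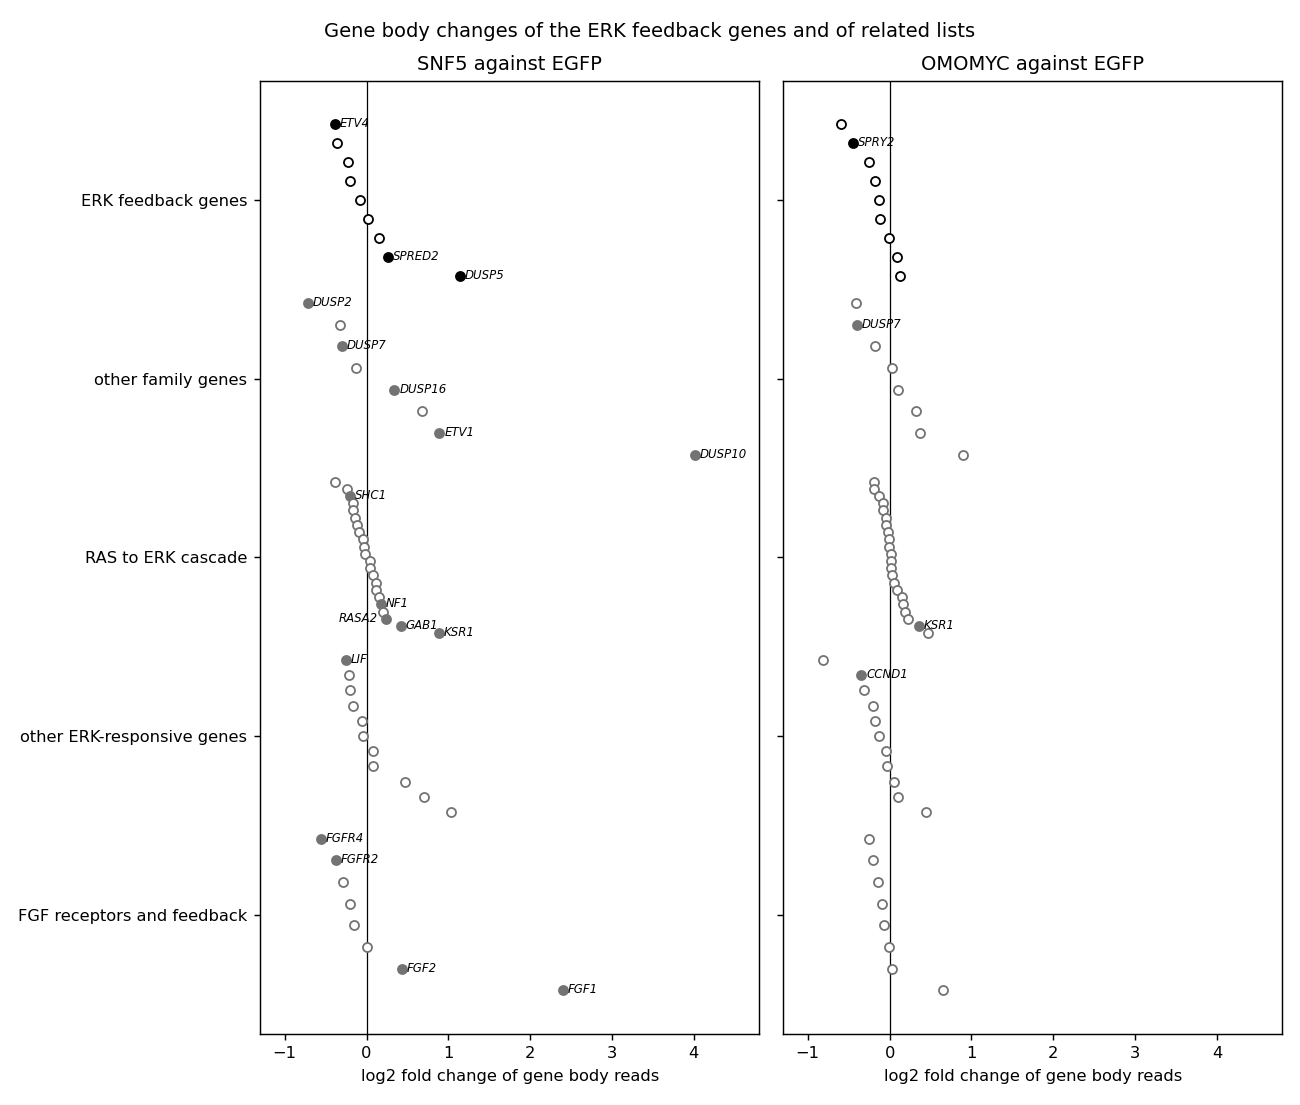
Log2 fold change of gene body reads (x axis) with SNF5 (left) and OMOMYC (right) for each tested gene, in rows by list and sorted by value. Filled points, with names, have an adjusted p under 0.05. DUSP10 (4.02) and FGF1 (2.40) lie furthest to the right with SNF5.

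To describe what else varied like these genes, gene body levels were centred within each replicate number, and DUSP6, SPRY4 and ETV5 were each correlated with the 12161 genes of at least 100 reads on average over the 9 samples. The genes most like DUSP6 were TM4SF1 (Pearson's r = 0.995), MED31 (0.989) and EXOC3 (0.987). Those most like SPRY4 were RBM26 (0.995), RPL27 (0.990) and VCL (0.989). Those most like ETV5 were C20orf26 (0.994), MUTED-TXNDC5 (0.994) and CYBASC3 (0.992). None of these is one of the 10 genes. Between the 9 tested genes r ran from −0.97 (DUSP5 and ETV5) to 0.92 (DUSP5 with SPRED2, and ETV4 with ETV5). These values share the 9 libraries and carry no test. The genes named for DUSP6, SPRY4 and ETV5 are the top 3 of 12161 over only 9 centred samples. That choice alone favours a high r.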

How the data were processed

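The authors trimmed PRO-Seq reads with Cutadapt, kept reads over 15 bp, reverse complemented them, aligned them to hg19 with Bowtie2, removed rRNA loci and mapping quality under 10, and used NRSA for the counting. Per transcript the deposited table gives raw counts in the promoter-proximal window (50 bp, chosen up to 500 bp from the start) and in the gene body, beside a read density per bp (signal) that served here to set the gene body length. For ATAC-Seq (hg38, MACS2 at a q-value of 0.001) and MYC ChIP-Seq (hg19), the deposited lists hold, per peak of each sample, a fold ratio over local background and −log10 p and q. They hold no depth. The OMOMYC ChIP lists hold a placeholder line and were not used, nor were IgG samples.

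Counts were tested with edgeR 4.0.16 (quasi-likelihood) and limma 3.58.1 in R 4.3.3, with DESeq2 1.42.0 as an alternative. All 9 samples entered, with the replicate number as a block. Genes under a mean of 10 counts were left out, and each symbol kept its transcript with most reads. For both regions the library size was the gene body total multiplied by its RLE factor (0.968 to 1.04). The pausing index was the interaction of region and construct. P-values were adjusted over all genes by the Benjamini-Hochberg method at 0.05. An SE is the change over the root of F.

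Pairing was checked from correlations after removal of construct means. Samples of the same number gave r of 0.753 to 0.882 in the gene body and 0.689 to 0.849 in the window, and the others −0.668 to 0.126 and −0.606 to −0.0584, so the numbers were taken as pairs. The scripts were tested on simulated data. CPM and RPKM use the same library sizes.

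The members and lists were chosen with earlier results of these data known. The cascade list first held 2 more genes, which are not reported here. The 9 tested members are named in each gene body comparison. From the other lists, genes with an adjusted p under 0.05 in either region with either construct are named, and pausing index calls in these lists were added after their values were seen. Alternatives tried were DESeq2, TMM factors, promoter-proximal totals, a mean of at least 1 count, no block, only the 2 constructs compared, each sample left out and, added after seeing the data, each replicate number left out. For ATAC-Seq they were the same number of top peaks, −log10 q of at least 10, summits within 150 bp, 10 kb to each side and each sample left out.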

Additional observations from a re-analysis of the deposited data

How the results depend on the processing

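Without the replicate block none of the 9 tested genes was called in any comparison (0 in place of 3 and 1 in the gene body with SNF5 and OMOMYC, 4 between SNF5 and OMOMYC, and 1 each for promoter-proximal reads and the pausing index with SNF5). Few of all 15060 genes were called in the gene body by that fit: 218 higher and 7 lower with SNF5. With OMOMYC 1 was higher and 0 lower, and between SNF5 and OMOMYC 69 were higher and 6 lower. In promoter-proximal reads and the pausing index no gene at all was called. In the gene body DESeq2 called 4 genes with SNF5 (DUSP6 added), 2 with OMOMYC (SPRY4 added) and 5 between them (ETV4 added, as with TMM factors). Of all 15060 genes DESeq2 called 2628 higher and 2472 lower with SNF5, 1015 and 1064 with OMOMYC, and 1830 and 1209 between them. It called 0 in the pausing index with SNF5, where comparing only the 2 constructs also gave 0, and that fit gave 2 in the gene body with SNF5 (SPRED2 lost, adjusted p = 0.0735). Of all genes, DESeq2 called the index of 51 higher and 50 lower, and the fit of 2 constructs 90 and 86. In the gene body the fit of 2 constructs called 2114 of all genes higher and 1610 lower. Promoter-proximal totals gave 2 calls with SNF5 (DUSP5 and SPRED2) and 1 against OMOMYC (DUSP5). Of all 11241 genes they gave 497 higher and 496 lower with SNF5, and 100 and 28 against OMOMYC. Leaving out 1 sample, or all of 1 replicate number, gave 1 to 7 calls with SNF5, 0 to 6 with OMOMYC and 1 to 6 between them in the gene body. It gave 0 to 2 for promoter-proximal reads with SNF5, and 0 to 1 (SNF5) and 0 to 2 (OMOMYC) for the pausing index. The gene body calls among all genes moved as widely. Without replicate 2 they were 1097 higher and 369 lower with SNF5, 2 and 0 with OMOMYC, and 609 and 121 between them. Without replicate 3 they were 56.5%, 45.5% and 42.2% of all genes. The cause was not tested. The difference in open sites ran from 12.2 to 26.2 with SNF5, and with OMOMYC from −3.33 to 8.17, turning sign without OMOMYC replicate 2 or EGFP replicate 3. With 1 sample left out, no exact p can go under 0.2. Of the values for single genes, 1151 kept their side of the threshold, 49 lost and 33 gained a call, and no called value changed sign. Promoter-proximal windows of DUSP5, SPRY2, SPRY4, SPRED1 and ETV4 hold 7 to 171 reads, which limits what they can show.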

Other observations

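Fibroblast growth factors are a source of ERK signalling through their receptors. Of 10 listed ligands, receptors and feedback genes, 8 were tested in the gene body, and with SNF5 2 ligand genes rose and 2 receptor genes fell, beside 17.6% and 16.5% of all genes. Without replicate 3, 2 were called higher and 5 lower with SNF5, beside 26.7% and 29.9% of all genes. With OMOMYC 1 was then higher and 3 were lower, beside 21.6% and 23.9% of all genes. FGF1 had 99, 167 and 123 reads with EGFP, 166, 266 and 176 with OMOMYC and 559, 734 and 942 with SNF5, a log2 change of 2.40 with SNF5 (SE 0.24, adjusted p = 0.000217). FGF2 rose by 0.43 (SE 0.12, adjusted p = 0.0223) in the gene body and by 0.80 in the promoter-proximal window (SE 0.22, adjusted p = 0.0293). FGFR4 fell by 0.56 in the gene body (SE 0.13, adjusted p = 0.0124), and its pausing index rose by 1.18 (SE 0.25, adjusted p = 0.00341). FGFR2 fell by 0.38 in the gene body (SE 0.09, adjusted p = 0.0140) and by 0.78 in the window (SE 0.22, adjusted p = 0.0316). With OMOMYC and all samples none of the 8 was called in the gene body, while FGFR4 rose in the window by 0.78 (SE 0.21, adjusted p = 0.0485) and the pausing index of FGFR1 rose by 0.90 (SE 0.21, adjusted p = 0.0129). FGF2 also differed by replicate number, with 327, 336 and 614 CPM in replicate 3 and 993 to 1509 in the others, and IL17RD, an inhibitor of FGF signalling, had 569 to 694 in replicate 3 and 293 to 345 in the others.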
